A study of Bos taurus with 2 samples.

Results

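The cluster of mir-191 and mir-425 is a pair of neighbouring pre-miRNAs whose mature arms were followed here in bovine mammary gland (MG). Its members were taken by name from the deposited table of known bovine miRNAs, with every arm listed. This gave 3 of 283 known miRNAs, namely mir-191-5p, mir-425-5p and mir-425-3p, out of 883 miRNAs of the series with a count given for both libraries, a listed 0 included. A candidate miRNA predicted from the genome, CN-281-3p, stands at the coordinates of the mir-191 hairpin as its opposite arm and is described with them. All 4 entries that the 3 tables list within 10 kb of the cluster are thereby covered.

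The study set MG in lactation against MG out of lactation to find miRNAs that differ between these periods. The lactation library came from 1 multiparous Holstein dairy cow aged 6 years and 2 months in milk. The non-lactation library came from 1 multiparous Holstein dairy cow aged 4 years, non-lactating and non-pregnant. Both libraries were whole gland tissue with no treatment, so age, animal and library cannot be told apart from the period.

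Small RNAs were sequenced, and each miRNA has 2 deposited counts per library. One is the count of its single most abundant sequence, which is used unless stated otherwise, and the other adds up all isomiRs, which are reads of the same miRNA that differ in length or in a base. Summed over the 3 tables, the most abundant sequences came to 5745936 reads for lactation and 7879028 for non-lactation. Levels are given as RPM, reads per 1000000 clean reads, and each ratio is RPM in lactation divided by RPM in non-lactation. Ranges in parentheses are exact 95% intervals. They hold the counting error of reads alone, not differences between animals. Copies made by PCR are not separate molecules, so the intervals can be too narrow for molecules. With 1 library per condition no difference has a replicate check, and no p-value is given.

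MiRNAs are cut from hairpins. Drosha frees the pre-miRNA from the primary transcript, Dicer removes the loop, and one arm of the resulting duplex is usually kept in Argonaute while the other is degraded. The seed, bases 2 to 8 of the mature strand, guides target recognition, so a shift of the 5′ end changes the seed. In mammals mir-191 and mir-425 are made from a shared transcript that overlaps DALRD3, and the cluster is known as estrogen-responsive in breast cancer cells. miR-191 is abundant in many tissues and is often used as a reference for RT-PCR of miRNAs.

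By the listed positions the pre-miRNAs are close neighbours. On BTA 4.0 the mir-191 pre-miRNA lies at chr22:51902736-51902826 and the mir-425 pre-miRNA at chr22:51903218-51903304, both on the plus strand and 391 bases apart. The RefSeq annotation of assembly ARS-UCD2.0 gives the same spacing of 391 bases between MIR191 and MIR425. There NDUFAF3 precedes the cluster, DALRD3 follows it, and no annotated gene spans both pre-miRNAs. RefSeq also lists MIR191B within the cluster. Exons and introns at these positions were not analysed here.

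The 4 mature sequences are shown because each carries a different seed, printed in capitals.

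mir-191-5p: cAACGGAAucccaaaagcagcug

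mir-425-5p: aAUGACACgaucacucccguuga

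mir-425-3p: cAUCGGGAaugucguguccgcc

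CN-281-3p: cUGCGCUUggauuucguuccc

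No seed was shared among them or with any other entry of the 3 tables. mir-191-5p and mir-425-5p were 23 nt long, mir-425-3p was 22 nt and CN-281-3p 21 nt. GC content ran from 47.8% in mir-425-5p to 63.6% in mir-425-3p.

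The table of candidates gives the whole mir-191 hairpin, which shows where its arms lie. In it, capitals mark mir-191-5p and then CN-281-3p.

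mir-191 hairpin: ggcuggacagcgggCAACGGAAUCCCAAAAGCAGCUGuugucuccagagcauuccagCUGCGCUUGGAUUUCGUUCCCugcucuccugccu

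The hairpin is 91 nt long. mir-191-5p takes up positions 15 to 37, which is chr22:51902750-51902772, and CN-281-3p positions 58 to 78, which is chr22:51902793-51902813. The predicted fold of lowest energy (RNAfold, -47.7 kcal/mol) paired 16 bases of mir-191-5p with CN-281-3p, and 20 bases lay between the arms. CN-281-3p thus lies opposite mir-191-5p in the predicted stem.

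The most abundant sequences of mir-425 in these libraries did not start where the array targets of the study start. For mir-191-5p the sequence was identical to the array target. For both arms of mir-425 the sequence had 1 extra base at the 5′ end, and the targets are shown with their own seeds in capitals because these differ from those above.

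bta-miR-425-5p target: aUGACACGaucacucccguuga

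bta-miR-425-3p target: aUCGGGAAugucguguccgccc

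The 3p sequence also lacked 1 base at the 3′ end. Of 183 known miRNAs matched to an array target, 9 had extra bases at the 5′ end (4.92%), and 2 of these 9 were the arms of mir-425. Among the others, 164 had the same 5′ end and 10 started further inside. Reads of single isomiRs were not analysed here, so the reads that start at the target's 5′ end are not given.

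mir-191-5p was by far the most abundant arm of the cluster and was lower in the lactation library. Its 16335 reads in lactation were 1365 RPM (1344 to 1386), and its 44672 reads in non-lactation were 2798 RPM (2772 to 2824). The level in the lactation library was 2.05-fold lower (2.01 to 2.09), a ratio of 0.488. With the 41494 and 109854 reads of all isomiRs the level was 1.98-fold lower (1.96 to 2.01). Among known miRNAs it ranked 32nd in lactation, between mir-30d-5p (18770 reads) and let-7e-5p (14603 reads), and 25th in non-lactation, between let-7d-5p (46509 reads) and mir-181a-5p (29294 reads). Its counting interval overlapped none of these neighbours.

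mir-425-5p, the arm of mir-425 with more reads, moved in the opposite direction. It had 569 reads (47.6 RPM, 43.7 to 51.6) in the lactation library and 403 reads (25.2 RPM, 22.8 to 27.8) in the non-lactation library. Its ratio was 1.88 (1.66 to 2.15), and 1.73 (1.59 to 1.87) with the 1430 and 1106 reads of all its isomiRs. It ranked 98th and 112th among known miRNAs. At this depth it could not be told apart in level from the miRNAs next in order, mir-10a-5p (594 reads) and mir-100-5p (562 reads) in the lactation library and mir-142-3p (416 reads) and mir-193b-3p (381 reads) in the non-lactation library.

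mir-425-3p had few reads, and its ratio depended on which reads were counted. It had 91 reads (7.61 RPM, 6.12 to 9.34) in the lactation library and 89 reads (5.57 RPM, 4.48 to 6.86) in the non-lactation library, a ratio of 1.36 (1.01 to 1.85). With the 330 and 439 reads of all isomiRs the ratio was 1.00 (0.867 to 1.16), which did not differ from 1 beyond counting error. It ranked 154th and 157th among known miRNAs, and its interval overlapped those of its neighbours in both libraries, such as mir-744-5p (105 reads) and mir-299-5p (87 reads).

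CN-281-3p, the candidate opposite arm of mir-191, was close to the lowest listed counts. It had 4 reads (0.334 RPM, 0.0911 to 0.856) in the lactation library and 6 reads (0.376 RPM, 0.138 to 0.818) in the non-lactation library. No difference was detectable at this depth, with a ratio of 0.890 (0.185 to 3.75). With all isomiRs it had 12 and 10 reads.

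**Figure D1:**
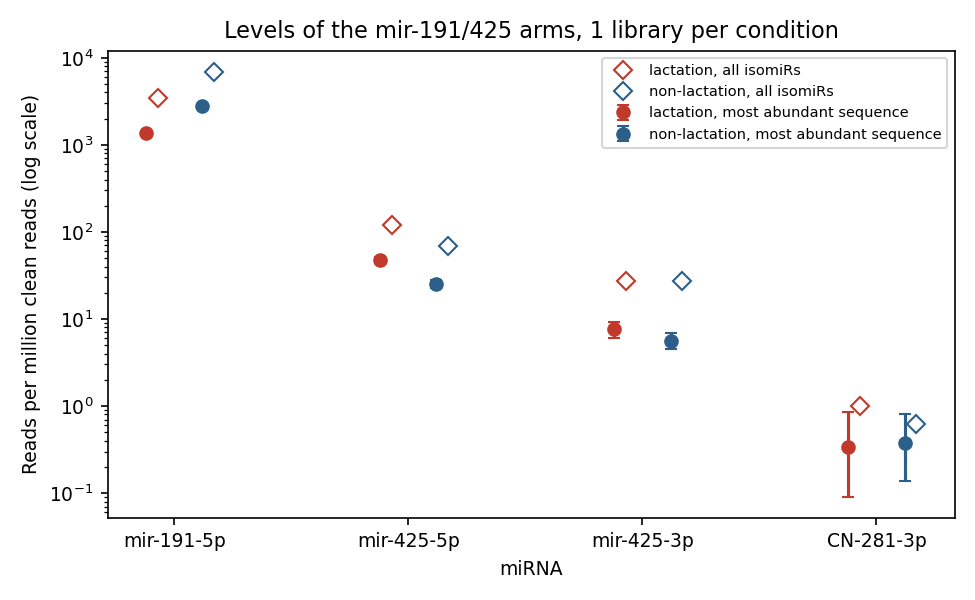
RPM (log scale) of the arms of mir-191 and mir-425 and of CN-281-3p, in 1 library per condition. Filled points are the most abundant sequence with its exact 95% counting interval and open diamonds are all isomiRs. mir-191-5p lies at 2798 RPM in non-lactation and 1365 RPM in lactation, while mir-425-5p lies higher in lactation, at 47.6 against 25.2 RPM.

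The order of the arms was the same in both libraries: mir-191-5p, mir-425-5p, mir-425-3p and CN-281-3p. The counting intervals of neighbours in this order did not overlap. The order is one of reads, not of molecules in the tissue.

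Differences of this size were common. Of the 188 known miRNAs that summed to 100 reads or more, 40 (21.3%) were 2-fold or more lower in lactation and 51 (27.1%) were 2-fold or more higher. Of the 3 known arms of the cluster, mir-191-5p was past the fold, on the lower side, and the arms of mir-425 were not. With all isomiR reads or with listed reads as totals mir-191-5p fell just short of it. The 188 had a median log2 ratio of 0.30, with quartiles at -0.68 and 1.09. The log2 ratio of mir-191-5p, -1.04, was higher than those of 39 of the 188 miRNAs. That of mir-425-5p, 0.91, was higher than 133, and that of mir-425-3p, 0.45, higher than 106.

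The directions of mir-191-5p and mir-425-5p held under each scaling tried, but their sizes moved. The ratio of mir-191-5p ran from 0.366 without scaling to 0.504 with all isomiR reads, and that of mir-425-5p from 1.29 with unscaled isomiR reads to 1.94 with the listed reads as totals. That of mir-425-3p ran from 0.752 to 1.40 and lay below 1 only with unscaled isomiR reads, which are not corrected for the larger non-lactation library. Its interval included 1 with TMM factors (0.933 to 1.71), DESeq2 size factors, raw reads as totals and no scaling. Without scaling, 30 known miRNAs were 2-fold or more higher and 53 lower, and with DESeq2 size factors 37 and 46. The median log2 ratio of the 188 miRNAs moved by -0.42 without scaling, by -0.28 with DESeq2 size factors and by -0.11 with TMM factors. The log2 ratios of mir-191-5p and mir-425-5p lay on opposite sides of the median of 0.30 as well as of 0.

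**Figure D2:**
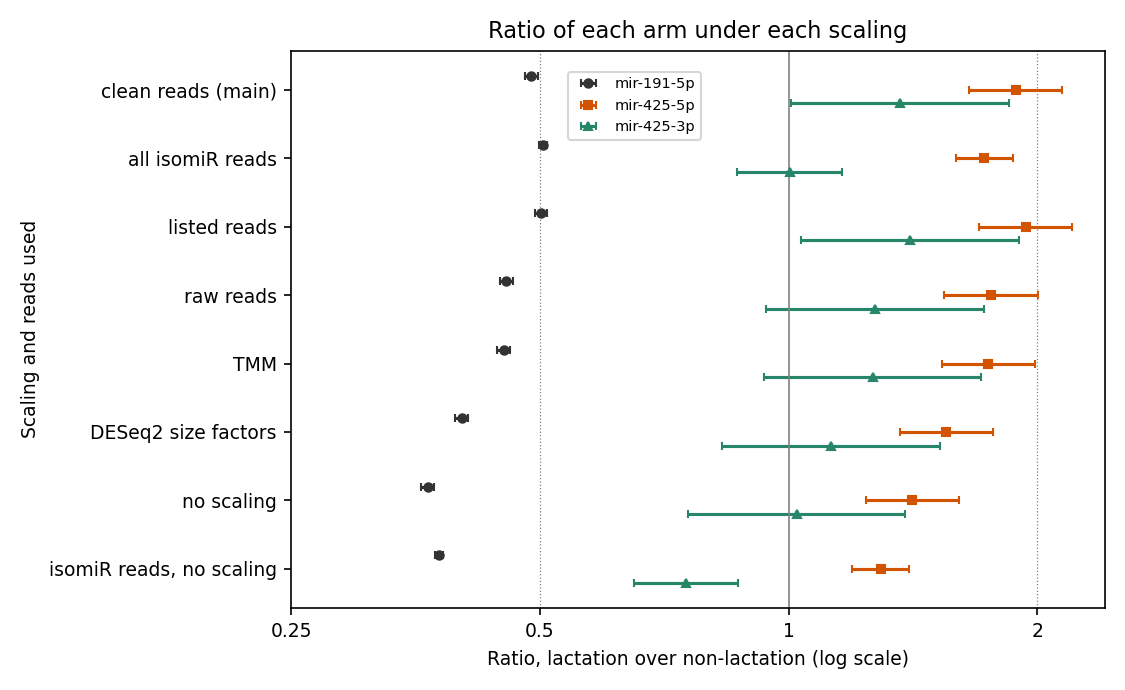
Ratio of reads, lactation over non-lactation (log scale), of the 3 known arms under each scaling and with all isomiR reads. Bars are exact 95% counting intervals, the solid line marks a ratio of 1 and the dotted lines a 2-fold difference. mir-191-5p stays near or below 0.5 in each setting and mir-425-5p above 1, whereas mir-425-3p moves from 1.40 to 0.752. The value of 0.752 is from isomiR reads not scaled to library size.

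The balance within the cluster does not depend on scaling. For each read of mir-425-5p there were 28.7 reads of mir-191-5p in lactation and 111 in non-lactation. The odds of mir-191-5p against mir-425-5p were 3.86-fold lower in the lactation library (3.39 to 4.40). With all isomiR reads they were 3.42-fold lower (3.16 to 3.71), and against both arms of mir-425 together 3.67-fold lower (3.25 to 4.14). In lactation mir-191-5p made up 96.6% (96.4% to 96.9%) of the reads of this pair, and in non-lactation 99.1% (99.0% to 99.2%).

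Neighbouring pre-miRNAs seldom differed this much, though some pairs differed more. Known pre-miRNAs on the same strand with gaps of at most 10 kb gave 45 neighbouring pairs in which both had at least 100 summed reads, with their arms summed. Each miRNA was placed at 1 listed position only. Reads of a miRNA with further positions were all counted there, so the ratios of such pairs are not specific to a locus. The ratios of a pair differed by 1.66-fold in the median and by at least 2-fold in 16 pairs (35.6%). In 13 pairs (28.9%) the ratios lay on opposite sides of 1. The pair of mir-191 and mir-425 differed by 3.67-fold, in opposite directions, and was 5th of the 45. The 4 pairs with a larger difference were mir-194 and mir-215 (5.30-fold), mir-127 and mir-432 (4.89-fold), mir-432 and mir-136 (3.84-fold), and mir-363 and mir-20b (3.82-fold). The first 3 of these went in opposite directions, and each included mir-194 (194 and 126 reads) or mir-432 (80 and 58 reads). Among the 25 pairs with at least 1000 summed reads in both pre-miRNAs, mir-191 and mir-425 differed the most. That minimum left out the 4 larger pairs, such as the one with mir-20b (778 and 84 reads), and mir-425 (660 and 492 reads) passed it narrowly. In the other settings the cluster was not first. It was 4th of 26 with gaps of at most 1 kb and 5th of 47 with gaps of at most 50 kb. With all isomiR reads it was 5th of 52 (3.02-fold).

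**Figure D3:**
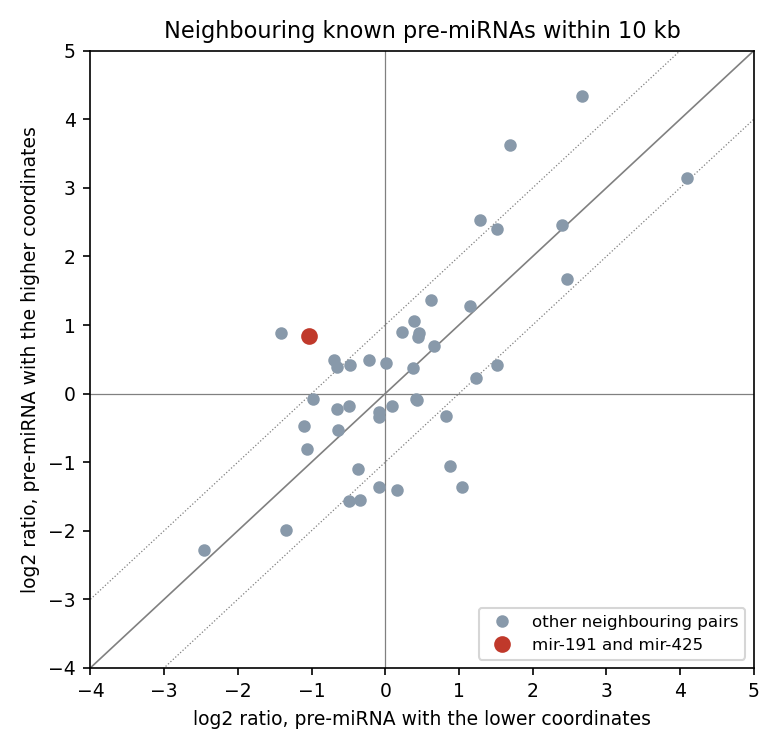
log2 ratio, lactation over non-lactation, of the 45 pairs of neighbouring known pre-miRNAs on a strand within 10 kb, with the arms of each summed. The solid line marks equal ratios and the dotted lines a 2-fold difference. The red point, mir-191 and mir-425, lies at -1.04 and 0.84, in the quadrant where the first is lower and the second higher in the lactation library.

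Both arms of mir-425 were listed, and the 5p arm was the major one in both libraries. In lactation it held 86.2% (83.3% to 88.8%) of the reads of the hairpin, 6.25 reads to each read of the 3p arm. In the non-lactation library it held 81.9% (78.2% to 85.2%), or 4.53 reads to 1. The odds were 1.38-fold higher in the lactation library, with an interval that includes 1 (0.991 to 1.92). With all isomiR reads the shares were 81.3% (79.3% to 83.0%) and 71.6% (69.3% to 73.8%), and the odds were 1.72-fold higher (1.46 to 2.03). By the most abundant sequences, of 15 known hairpins with both arms at 100 summed reads or more, 10 (66.7%) differed at least 1.5-fold in these odds, led by mir-193a (2.84-fold), mir-424 (2.18-fold), mir-17 (1.88-fold), mir-455 (1.85-fold) and mir-423 (1.82-fold). mir-425 was 11th of the 15. By all isomiR reads, 8 of 16 hairpins (50%) differed at least 1.5-fold, mir-425 among them, and mir-425 was 7th of the 16. The place of mir-425 among the hairpins thus depended on which reads were counted.

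The mir-191 hairpin was one-sided. Each read of CN-281-3p stood against 4084 reads of mir-191-5p in lactation and 7445 in non-lactation. The odds did not differ beyond counting error (ratio 0.549, 0.130 to 2.64), and with all isomiR reads they were 3.18-fold lower in the lactation library (1.26 to 8.21), on 12 and 10 reads of CN-281-3p.

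Sequences other than the most abundant one made up most of the reads of each of the 3 known arms. The most abundant sequence held 39.4% (38.9% to 39.8%) of the reads of mir-191-5p in lactation and 40.7% (40.4% to 41.0%) in non-lactation, with an odds ratio of 0.947 (0.926 to 0.970). For mir-425-5p the shares were 39.8% (37.2% to 42.4%) and 36.4% (33.6% to 39.4%), which did not differ beyond counting error (odds ratio 1.15, 0.977 to 1.36). For mir-425-3p they were 27.6% (22.8% to 32.7%) and 20.3% (16.6% to 24.3%), with an odds ratio of 1.5 (1.06 to 2.12). The median over the known miRNAs was 46.7% in lactation and 46.2% in non-lactation. mir-425-3p was among the lowest, with 19 of 187 and 7 of 188 known miRNAs below it.

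mir-425-3p had many distinct isomiRs, called kinds, for its abundance, as did a few other miRNAs. It had 21 kinds in lactation and 25 in non-lactation. mir-425-5p, with more isomiR reads, had 20 in each. Known miRNAs with isomiR reads within 2-fold of those of mir-425-3p had a median of 9 kinds in the lactation library, where 47 of 49 had fewer than it. In the non-lactation library the median was 10.5, and all 40 had fewer. In the lactation library mir-214-3p and mir-17-3p had more, with 22 kinds each. In the non-lactation library mir-455-3p came closest, with 24 kinds. None of these was as high in both libraries: mir-214-3p had 21 kinds in non-lactation, mir-17-3p had 16, and mir-455-3p had 13 in lactation. mir-191-5p had 173 and 194 kinds, against medians of 157 (18 miRNAs) and 175.5 (14 miRNAs). mir-425-5p lay near the median in the lactation library, 21.5 over 32 miRNAs, of which 14 had fewer kinds. In the non-lactation library it lay above the median, 15 over 33 miRNAs, of which 29 had fewer.

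**Figure D4:**
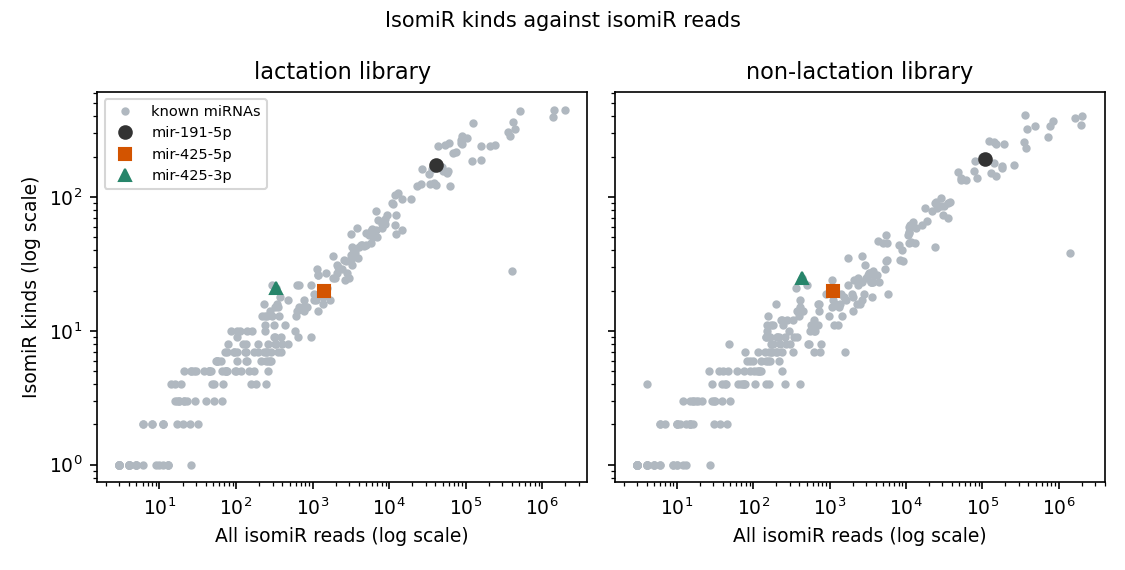
Number of isomiR kinds against the reads of all isomiRs (both log scales) for the known miRNAs listed in each library. mir-425-3p lies on the upper edge of the cloud, with 21 and 25 kinds, and mir-191-5p and mir-425-5p lie within it.

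miRNAs most like a member were those nearest in log2 RPM over both libraries. For mir-191-5p these were mir-99a-5p (11966 reads in lactation and 47580 in non-lactation), mir-181a-5p (14030 and 29294) and mir-140-3p (20944 and 66997). For mir-425-5p they were mir-193b-3p (437 and 381), mir-345-3p (870 and 448) and mir-532-5p (838 and 500). For mir-425-3p they were mir-326-3p (83 and 81), mir-409-5p (78 and 89) and mir-184-3p (107 and 98). Likeness over 2 libraries rests on 2 values for each miRNA.

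As a frame for mir-191-5p, other miRNAs often used as RT-PCR references were taken from a fixed list, of which 11 of 12 were listed. Of these, 2 were 2-fold or more lower in lactation, mir-25-3p (2.92-fold) and mir-26a-5p (2.44-fold), and 2 were 2-fold or more higher, mir-24-3p (2.09-fold) and mir-484-5p (4.56-fold). The other 7 lay within 2-fold, and the nearest to a ratio of 1 was mir-16a-5p (1.06). The median log2 ratio of the list was 0.09, against 0.30 over the 188 miRNAs. The log2 ratio of mir-191-5p, -1.04, was lower than those of 9 of these 11.

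Marker miRNAs of the cell types a gland can hold were listed in both libraries, with 1 exception. All 6 epithelial miRNAs were listed, with a summed level of 12385 RPM in lactation and 2596 RPM in non-lactation. Of these, 5 were 2-fold or more higher in lactation and mir-205-5p was lower. The 6 arms of smooth muscle and stroma summed to 8640 and 14558 RPM, but did not move together. Of the 5 that reached 100 reads, 3 were 2-fold or more lower in lactation. These were mir-199a-3p (ratio 0.211), mir-199a-5p (0.376) and mir-199b-5p (0.265). In contrast, mir-143-3p was higher (2.35) and mir-145-5p lay within 2-fold (1.17). Alone, mir-199a-3p had 2100 RPM in lactation and 9968 RPM in non-lactation. The 4 arms of striated muscle summed to 4480 and 696 RPM. The 5 blood arms summed to 125 and 131 RPM, but did not move together. mir-451-5p (889 reads in lactation and 475 in non-lactation) had a ratio of 2.50. In contrast, mir-142-5p (423 and 1128 reads), mir-142-3p (161 and 416 reads) and mir-223-3p (24 and 67 reads) were lower in lactation, with ratios from 0.478 to 0.517. mir-144-3p had 3 reads in lactation and 0 in non-lactation, too few to give a direction. These levels moved between the same libraries as mir-191-5p and mir-425-5p, and their part in those differences was not tested. In whole tissue, fewer cells of a type and less RNA per cell cannot be told apart.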

How the data were processed

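The deposited values are read counts and numbers of isomiR kinds. The authors made these counts after they trimmed adaptors, filtered out poor reads and reads of mRNA, rRNA, tRNA, Rfam and repeats, and mapped to miRBase 17.0 and to the genome BTA 4.0 with the ACGT-miR program. The paper names a Qiagen miRNeasy kit for RNA extraction and the labels name Trizol. In the table of candidates the isomiR reads and kinds were read in the order the values allow, opposite to the header. Conserved miRNAs were used for names, seeds and totals of listed reads only.

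RPM used the clean reads of each library given by the study. A listed 0 was set to 3 reads. Ratios have exact conditional intervals (Clopper-Pearson), levels exact Poisson intervals, and odds ratios exact conditional intervals. No test was run, since there was 1 library per condition, and a difference was called past 2-fold with at least 100 summed reads, over known miRNAs. Intervals were tested on simulated Poisson counts, the model they assume, which hold neither PCR copies nor differences between animals. Array targets (sequences only) were matched by name and a shared stretch of 17 bases or more. The hairpin was folded with RNAfold 2.7.2. Scripts ran in Python 3.11.15 (pandas 2.3.3, scipy 1.17.1). Scaling factors alone came from edgeR 4.0.16 and DESeq2 1.42.0 under R 4.3.3.

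Named miRNAs are the arms of the cluster and CN-281-3p, their neighbours in rank, the 3 nearest in level, the 5 leading pairs of each kind, 12 reference miRNAs and tissue markers. miRNAs named by rank were chosen after their values were seen. Members and lists were chosen with earlier results of these data known. Alternatives were other scalings, all isomiR reads, other read minimums and other gaps. Unscaled isomiR reads were added after seeing the data.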

Additional observations from a re-analysis of the deposited data

How the results depend on the processing

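The direction of mir-191-5p and of mir-425-5p held under every alternative. The ratio of mir-191-5p was 0.504 with all isomiR reads, 0.501 with listed reads as totals, 0.452 with TMM factors, 0.402 with DESeq2 size factors, 0.366 without scaling, 0.455 with raw reads as totals and 0.378 with unscaled isomiR reads, so it fell short of 2-fold with isomiR or listed reads. That of mir-425-5p was 1.55 with DESeq2 size factors, 1.41 without scaling and 1.29 with unscaled isomiR reads, and within its counting interval otherwise. That of mir-425-3p was 1.00 (0.867 to 1.16) with all isomiR reads scaled to clean reads. The same reads without scaling reversed to 0.752 (0.650 to 0.869). This value leaves the larger number of clean reads in the non-lactation library uncorrected, so it does not show a lower level in lactation. Neighbouring pairs that differed at least 2-fold were 10 of 25 with at least 1000 summed reads, against 16 of 45 in the main setting. This lower count came with fewer pairs compared. miRNAs at least 2-fold higher were 30 without scaling, against 51 in the main setting. Counts and ratios without scaling keep the difference in library size. Other causes of these changes were not tested. The other 38 values were ratios or odds that stayed within their main intervals, or counts within 1.5-fold of the main count. Such counts still moved. miRNAs at least 2-fold higher were 37 with DESeq2 size factors and 74 with no read minimum. Those at least 2-fold lower were 53 without scaling, against 40 in the main setting. CN-281-3p, with 4 and 6 reads, can show only large differences. No paired analysis was possible because each condition has 1 library. No replicate could be left out.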
